A study of Oryza sativa Japonica Group with 20 samples.

Results

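The H3K27me3 landscape of rice seedlings (Oryza sativa, Japonica group) lacking SLR1 was compared with that of seedlings labelled control, using the broad peak lists of 4 of the 20 samples of the series. Peaks of the 4 lists were merged into 15108 regions, and a region counted as marked in a library when the peaks of that library covered at least 200 bp of it. The slr1 libraries (2) came from an SLR1 knockout, with seedlings of 12 days per the series' design text. The libraries labelled control (2) came from wild-type seedlings whose treatment is labelled control and whose age the labels do not give. Both groups were grown in Murashige and Skoog medium, and the chromatin was precipitated with the same H3K27me3 antibody. A further pair of libraries, labelled GA (wild-type seedlings given 100 uM gibberellin through the roots for 6 h), was used only beside individual results. The sources used here do not give the knockout's allele or the number of lines or plants behind each library, and a difference of genotype cannot be told apart from a difference of age or experiment. Nothing in the labels says that replicates were separate plants, so p-values measure the spread between these libraries, which may be technical.

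The DELLA protein encoded by SLR1 acts in the nucleus to hold back growth responses to gibberellin in rice. Gibberellin, bound to its receptor GID1, leads to the destruction of DELLA proteins, and loss of SLR1 gives tall, slender plants that behave as if the hormone were always present. H3K27me3, trimethylation of lysine 27 on histone H3, is written by Polycomb repressive complex 2 and marks silent genes, among them many developmental regulators. In plants it often forms domains over single genes or over clusters of neighbouring genes.

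The peak names inside the lists did not match the labels. Peaks of the libraries labelled control carried the tag 6h, those of the libraries labelled GA carried CK, and those of the slr1 libraries carried j3. Groups were kept as labelled, and the main counts were also taken with the libraries labelled GA in place of those labelled control. The second slr1 library stood apart as well, with 11699 peaks against 13427 to 13614 in the other 3.

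Both slr1 libraries had weaker peaks than both libraries labelled control, but they did not share a change in covered length. Averaged over peaks, the fold enrichment given by the authors was 3.62 and 3.67 in the libraries labelled control and 3.29 and 3.09 in the slr1 libraries. The groups did not overlap, at 3.65 ± 0.0394 and 3.19 ± 0.143 (SD, n = 2 each), and the difference of -0.46 gave p = 0.333 in an exact permutation test, 2-sided, the smallest p that 2 libraries against 2 allow. The libraries labelled GA averaged 3.27 and 3.57, so the lower of them lay just under the higher slr1 library. The adjusted p was 1 for each of the 4 library-level measures.

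The upper end of the lists showed the same order. Peaks with a fold of at least 5 made up 16.5% and 17.8% of the lists labelled control, against 9.57% and 4.68% of the slr1 lists. The libraries labelled GA had 8.83% and 14.6%, on both sides of the first slr1 library. The highest single fold was in that slr1 library, at 20.1, against 13.5 and 15.2 in the libraries labelled control and 10.1 in the second slr1 library. The 90th percentile of fold was 5.67 and 5.83 in the libraries labelled control and 4.96 and 4.38 in slr1. The lowest fold in each list lay close to the others, at 1.73, 1.75, 1.66 and 1.65. The depth of each library is unknown, since the lists hold no read counts, and a peak's fold also moves with depth and background, whose part in the result was not tested.

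Covered length did not separate the groups. Peaks covered 25.1 and 27.1 Mb in the libraries labelled control and 27.8 and 21.3 Mb in the slr1 libraries, which thus held both the highest and the lowest value. The means were 26.1 ± 1.45 and 24.6 ± 4.53 Mb (SD, n = 2 each), and the exact permutation test gave p = 1. Peak number averaged 13520.5 ± 132 and 12648.5 ± 1343 (exact permutation p = 0.667). Median peak width was 1026 and 1073.5 bp in the libraries labelled control and 1099.5 and 996 bp in slr1 (exact permutation p = 1). Without the second slr1 library, covered length was 1.66 Mb higher in slr1, and peak number 77.5 higher.

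**Figure D1:**
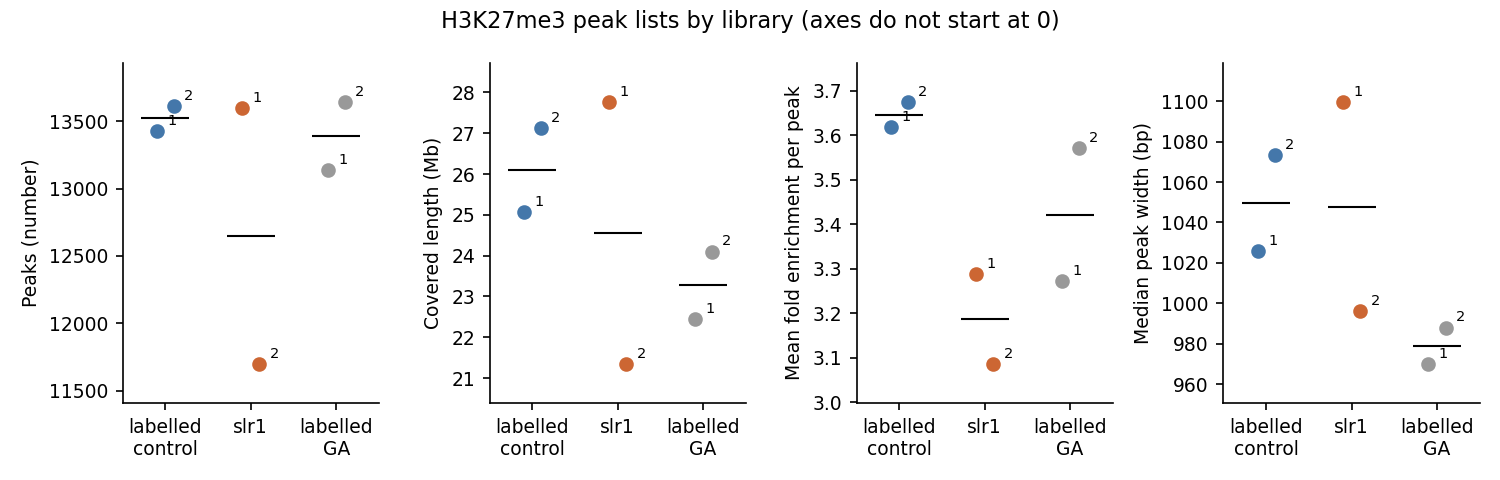
Number of peaks, covered length (Mb), mean fold enrichment per peak (as deposited) and median peak width (bp) of each library, with the replicate number beside each point and the group mean as a line; the axes do not start at 0. The slr1 libraries lie below both libraries labelled control in mean fold (3.29 and 3.09 against 3.62 and 3.67), and on both sides of them in covered length.

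The peak set of the second slr1 library lay largely inside those of the libraries labelled control, and that of the first did so less. Of the length covered in the second slr1 library, 92.3% and 94.8% was also covered in the first and second libraries labelled control, and 96.1% in the first slr1 library. For the first slr1 library these shares were 81.0%, 85.4% and, in the second slr1 library, 73.9%. The other way round, the first slr1 library covered 89.7% and 87.4% of the length of the libraries labelled control, and the second 78.6% and 74.6%. The Jaccard index, the shared length over the joint length, was 0.825 for the libraries labelled control, 0.718 for the slr1 pair, and 0.717 to 0.761 for the 4 pairs across groups. The index of the slr1 pair thus lay below 3 of the 4 across groups. The mean index within groups exceeded that between groups by 0.0323 (exact permutation test over 3 pairings, 1-sided, p = 0.333, the smallest possible).

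Most H3K27me3 regions were marked in every library. Of the 15108 regions, 9491 (62.8%) were marked in all 4. These held 24.3 of the 26.1 Mb covered on average in the libraries labelled control. By single bases, 19.1 of the 32.2 Mb covered in any library (59.1%) was covered in all 4 at once. A set of 858 regions (5.68%) was marked in both libraries labelled control and in neither slr1 library, and is called lost here. Another 199 regions (1.32%), called gained, were marked in both slr1 libraries and in neither library labelled control. Lost regions outnumbered gained ones. Their mean covered length in the group that has them summed to 0.465 Mb, against 0.165 Mb for gained regions. Counted over single bases wherever they lay, also at the edges of shared regions, 1.44 Mb (4.45%) was covered in both libraries labelled control and neither slr1 library, and 0.546 Mb (1.69%) the other way round. No lost region had any peak in the slr1 libraries, and no gained region had any in those labelled control. This follows from the definition, since the narrowest peak of the 4 lists was 204 bp wide and a region was marked at 200 bp.

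Many of the other regions were set apart by 1 library. The first slr1 library alone marked 1274 regions, the second alone 121, the libraries labelled control alone 396 and 629. Another 1195 regions lacked only the mark of the second slr1 library. The 4 patterns that join 1 library of each group held 586 regions together, fewer than the lost regions and more than the gained ones. Without the second slr1 library there were 997 lost and 1486 gained regions, and without the first 2113 lost and 402 gained. Without the first library labelled control there were 1523 lost and 254 gained regions, and without the second 1337 lost and 374 gained. With the libraries labelled GA in place of those labelled control, there were 579 lost and 316 gained regions. The excess of lost over gained regions turned round when the second slr1 library was left out.

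**Figure D2:**
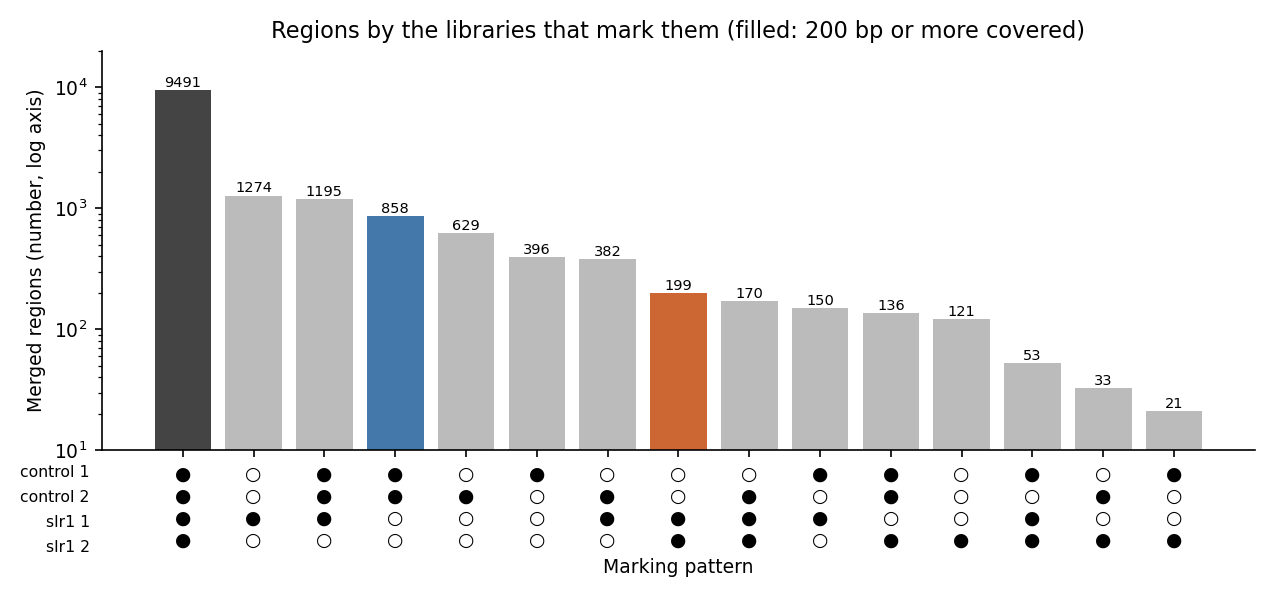
Number of merged regions (log axis) for each combination of the 4 libraries that mark them, with filled circles for a library covering at least 200 bp. Regions marked in all 4 (9491) exceed every other pattern, and the lost set (858, blue) exceeds the gained set (199, orange).

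Lost regions were short and weak. Their median width was 535.5 bp and their median fold 2.28 in the libraries labelled control, against 1777 bp and 3.74 for regions marked in all 4 libraries. Only 43 of the 858 (5.01%) reached a mean fold of 3, which 72.6% of the regions marked in all 4 did. Only 14 were 2000 bp or wider. The share lost was lower in each stronger class up to a fold of 5. Of the regions marked in both libraries labelled control, 27.2% were lost below a fold of 2.5, 8.22% between 2.5 and 3, and 1.30% between 3 and 4. At a fold of 4 or more it came to 5 regions, 2 of 1938 between 4 and 5 and 3 of 2203 from 5 upward. By covered length it was 33.2% between 200 and 500 bp and 0.219% between 2000 and 5000 bp. The short, weak regions lie closest to the limit of peak calling, whose part in these counts was not tested.

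Gained regions were wider than lost ones and as weak. Their median width was 933 bp, and 43.7% were at least 1000 bp wide, against 13.1% of lost regions. Their median fold in the slr1 libraries was 2.42, and 14 of 199 (7.04%) reached 3. Of the regions marked in both slr1 libraries, 6.40% were gained below a fold of 2.5, 1.94% between 2.5 and 3, and 0.310% between 3 and 4. Gained regions lay a median of 7460 bp from the nearest region marked in all 4 libraries, and lost regions 9286.5 bp. Within 1000 bp of such a region lay 18.1% of the gained and 8.62% of the lost regions, against 14.0% of the regions marked in all 4 themselves.

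**Figure D3:**
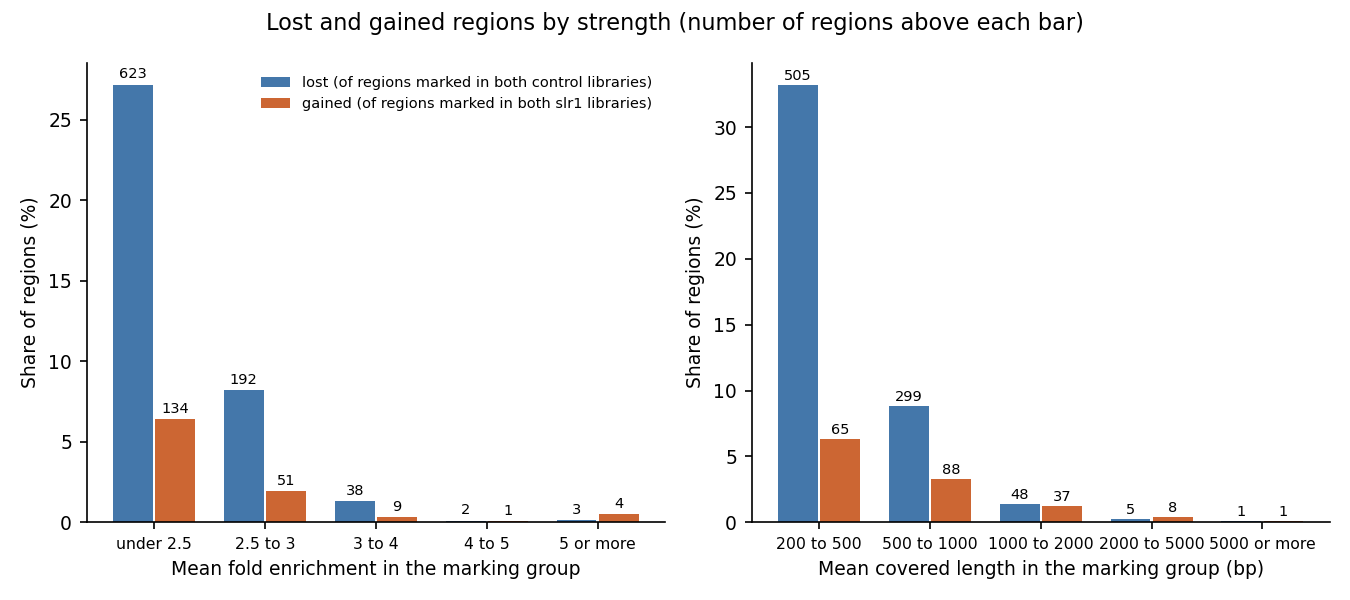
Share (%) of regions lost, among those marked in both libraries labelled control, and gained, among those marked in both slr1 libraries, by mean fold (left) and mean covered length in bp (right) in the group that has the mark; numbers above the bars are regions. Both shares fall from the weakest and shortest regions (27.2% and 6.40% below a fold of 2.5) to a handful of regions at high fold.

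The libraries labelled GA, which took no part in defining the classes, carried many of the lost regions and few of the gained ones. Of the 858 lost regions, 405 (47.2%) were marked in both libraries labelled GA, 243 (28.3%) in 1 and 210 (24.5%) in neither. Of the 199 gained regions, 14 (7.04%) were marked in both and 145 (72.9%) in neither. Of all 15108 regions, 70.6% were marked in both libraries labelled GA, and of those marked in all 4 libraries, 96.1%. The wild-type seedlings of all 4 libraries thus shared 47.2% of the lost set, and most gained regions had peaks in the slr1 libraries and in none of the other 4.

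The region-by-region fit made no call. limma on log2 covered length tested 9708 regions and called 0 lower and 0 higher in slr1 at an adjusted p under 0.05 (0% of those tested in either direction). At an unadjusted p under 0.05 there were 506 lower and 221 higher. The smallest adjusted p was 0.192, shared by the lost regions Chr11:5998125-6003727 and Chr11:5944452-5949159, each present in 2 of 2 libraries labelled control and absent from 2 of 2 slr1 libraries. Counted on peaks with a fold of at least 3 only, the same fit called 524 regions lower and 20 higher (limma, adjusted p under 0.05), and on peaks with a -log10 q of at least 3 it called 359 lower and 19 higher. The calls thus depended on which peaks were counted. Under such a limit, a region that slr1 marks only with weaker peaks counts as uncovered there.

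Both of the most extensive lost regions lay close together on chromosome 11. Coordinates are those of the authors' lists, made on a genome build that the sources used here leave unstated, and no gene was assigned to a region. Chr11:5998125-6003727 was covered over 4767 and 5603 bp in the libraries labelled control and 0 bp in both slr1 libraries. Its fold there was 4.97 and 4.92, and the libraries labelled GA covered 5455 and 4777 bp. It had peaks in all 4 wild-type libraries and none in slr1. Its log2 difference was -4.75 (SE 0.13, limma adjusted p = 0.192). With 0 bp in slr1 this value is set by the pseudocount of 200 bp, and was -6.71 at 50 bp and -2.63 at 1000 bp.

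The neighbouring Chr11:5944452-5949159 was stronger still. It was covered over 3899 and 4708 bp in the libraries labelled control, with folds of 5.94 and 6.18, and over 0 bp in both slr1 libraries. The libraries labelled GA covered 4628 and 3377 bp. Its log2 difference was -4.49 (SE 0.15, limma adjusted p = 0.192), and -6.44 and -2.40 at a pseudocount of 50 and 1000 bp. Next by mean covered length came Chr11:5014461-5016982, covered over 2386 and 2522 bp in the libraries labelled control, with folds of 3.16 and 3.39, and over 2280 and 2397 bp in those labelled GA.

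The next 5 lost regions by covered length were weaker, with folds between 2.00 and 2.70. Chr3:30018986-30022277 was covered over 2198 and 2656 bp in the libraries labelled control. Chr7:1950017-1952426 was covered over 1975 and 2410 bp there and over 0 bp in both libraries labelled GA, so that it had peaks in the libraries labelled control alone. It lay 857 bp from a region marked in all 4 libraries. Chr9:18376696-18379033 was covered over 1898 and 2279 bp, Chr3:9665224-9667227 over 1993 and 1909 bp, and Chr8:26851251-26853491 over 1375 and 2220 bp. These 3 and the first of the 5 had peaks in both libraries labelled GA. None of these 8 lost regions passed the limma test, with adjusted p between 0.192 and 0.444.

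The strong lost regions were concentrated on chromosome 11. Of the 43 lost regions with a fold of at least 3, 18 (41.9%) lay there, and no other chromosome had more than 5. Chromosome 11 held 8.68% of all regions and 8.42% of those marked in both libraries labelled control at a fold of at least 3. All 5 lost regions with a fold of at least 4 lay between positions 4940641 and 6030020. They were the 2 longest lost regions and the shorter Chr11:4940641-4941638, Chr11:5996506-5997215 and Chr11:6029315-6030020, with mean folds of 6.60, 4.81 and 5.06 in the libraries labelled control. Each of the 5 was marked in both libraries labelled GA.

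The stretch Chr11:4661733-6030020 (1.37 Mb) was singled out after its values were seen, so no test was made of it. Its ends were set at a gained and a lost region with a fold of at least 3. Its shares of lost and gained regions are thus partly built in. It held 56 regions. Of the 40 marked in both libraries labelled control, 19 (47.5%) were lost, against 7.21% of such regions elsewhere. Of the 25 marked in both slr1 libraries, 5 (20%) were gained, against 1.96% elsewhere. The stretch thus held both lost and gained regions. A missing peak there does not by itself show loss of the mark, since the sequence of the knockout line and the read coverage of the stretch were not analysed here. All 12 of its lost regions with a fold of at least 3 were marked in both libraries labelled GA, and all 4 of its gained regions with such a fold were marked in neither. Over the whole genome, 35 of 43 such lost regions were marked in both, and 9 of 14 such gained regions in neither. Peaks covered 82.5 and 95.4 kb of the stretch in the libraries labelled control and 62.7 and 48.3 kb in slr1, and the groups did not overlap. That difference is partly built in too, and 46 of 379 windows of 1 Mb (12.1%) were likewise lower in both slr1 libraries. The 19 regions of the stretch marked in all 4 libraries had a median fold of 3.76 in the libraries labelled control and 3.11 in slr1. Over all regions marked in all 4, the medians per library were 3.67 and 3.81 against 3.32 and 2.93.

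The longest gained region was Chr12:19296498-19306726. Peaks covered 9453 and 5882 bp of it in the slr1 libraries, at a mean fold of 2.54, and 0 bp in the libraries labelled control and in those labelled GA. It was the only region of 10 kb or more that was gained, and it lay 2307 bp from a region marked in all 4 libraries. Its log2 difference was 5.26 (SE 0.28, limma adjusted p = 0.366), a value set by the pseudocount, at 7.23 with 50 bp and 3.08 with 1000 bp. On peaks with a fold of at least 3 it had none in any library, and a difference of 0. Chr7:6580322-6585238 came next, covered over 4917 and 3079 bp in slr1, over 688 bp in the first library labelled GA and 0 bp in the second. Chr10:5314504-5318606 was covered over 4103 and 1474 bp in slr1 and over 499 and 455 bp in the libraries labelled GA.

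A pair of the gained regions lay close together on chromosome 4. Chr4:5934575-5937905 was covered over 3331 and 1980 bp in slr1 and Chr4:5951885-5955061 over 3174 and 1987 bp. Of the other 3 in the list of 8, Chr12:21181271-21184921 was covered over 3603 and 1386 bp, Chr1:19333684-19336941 over 3258 and 1456 bp, and Chr2:17292407-17294674 over 2248 and 2026 bp. In all 8 the first slr1 library covered more than the second. None passed the limma test, with adjusted p between 0.366 and 0.461.

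Gained regions with strong peaks were few. There were 5 with a mean fold of at least 4. Chr1:34864517-34865118 had folds of 20.1 and 3.10 in the slr1 libraries and peaks in both libraries labelled GA, and Chr8:15554164-15554757 had folds of 11.02 and 3.42. In both, the high mean came from the first slr1 library alone. Chr6:15451890-15452131, at 5.16 and 5.53, and Chr4:3250103-3250589, at 5.96 and 4.24, were above 4 in each slr1 library. The Chr6 region, 242 bp wide, was marked in both libraries labelled GA, and the Chr4 region in neither. Chr8:15554164-15554757 was marked in 1 library labelled GA.

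Regions marked in all 4 libraries were weaker in slr1 across the genome. The length-weighted fold of these 9491 regions had medians of 3.67 and 3.81 in the libraries labelled control and 3.32 and 2.93 in slr1. Both slr1 libraries lay below both libraries labelled control in 6156 regions (64.9%) and above in 308 (3.25%). The median difference was -0.24 on the log2 scale, at -0.15 in the first slr1 library and -0.33 in the second, while the libraries labelled control differed by 0.05. Once each library was centred on its own median, 2642 regions (27.8%) lay below and 3226 (34.0%) above. The excess of lower regions thus turned to an excess of higher regions after centring. Centring takes out any shift shared by the regions of a library, whatever its source, and that source was not tested. Against the libraries labelled GA, the shift was -0.12, at -0.03 and -0.21, and both slr1 libraries lay below in 3342 of 9296 regions (36%) and above in 528 (5.68%).

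Covered length within these regions differed less. Its medians were 1381 and 1490 bp in the libraries labelled control and 1532 and 1155 bp in slr1. Both slr1 libraries were below in 3201 regions (33.7%) and above in 807 (8.5%), and after centring below in 1910 (20.1%) and above in 1632 (17.2%). The median log2 difference was -0.09, at 0.01 in the first slr1 library and -0.22 in the second.

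The shift in fold was larger in narrow regions than in broad domains. Regions under 1000 bp had a median log2 difference in fold of -0.29, at -0.22 in the first slr1 library and -0.37 in the second. In regions of 10 kb or more it was -0.16, at -0.01 and -0.32. In these 431 broad domains the median fold was 4.43 and 4.77 in the libraries labelled control and 4.53 and 3.70 in slr1. The first slr1 library thus lay between the libraries labelled control, and the second below both. The log2 difference in covered length ran from -0.21 under 1000 bp to -0.02 at 10 kb or more. The slr1 libraries differed in sign in the wider classes, at -0.09 and -0.33 under 1000 bp, 0.09 and -0.20 between 2000 and 5000 bp, and 0.03 and -0.07 at 10 kb or more. Against the libraries labelled GA the fold of the broad domains differed by 0.01, at 0.16 and -0.15, so the sign differed between the slr1 libraries.

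**Figure D4:**
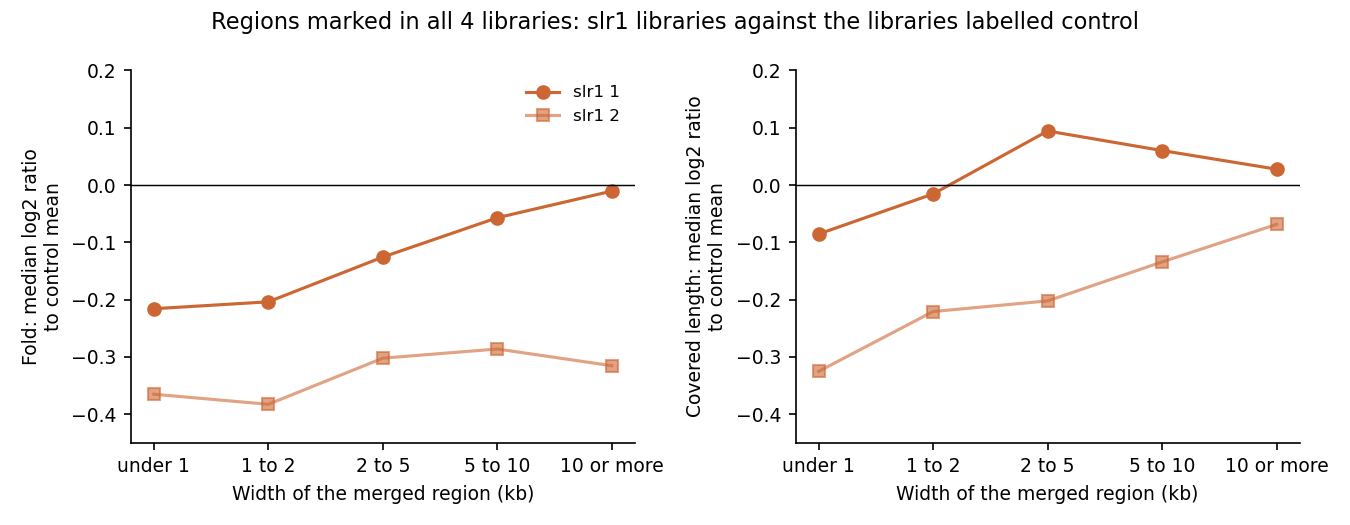
Median log2 ratio of fold (left) and covered length (right) of each slr1 library to the mean of the libraries labelled control, in regions marked in all 4 libraries, by width of the merged region (kb). In fold, both slr1 libraries lie below 0 in each class, and only the first approaches 0 in the broadest class (-0.01 against -0.32).

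Nearly every broad H3K27me3 domain was marked in each library. Of 432 regions of 10 kb or more, 431 were marked in all 4 libraries, 0 were lost and 1 was gained. The width is that of the merged region, of which 200 bp sufficed for marking. Single peaks of 10 kb or more numbered 301 and 349 in the libraries labelled control and 358 and 258 in slr1. The covered length of the 431 domains was 6.45 and 6.70 Mb in the libraries labelled control and 6.73 and 6.13 Mb in slr1. Both slr1 libraries were below both libraries labelled control in 114 of the 431 and above in 57. Among all 9491 regions marked in all 4, these counts were 3201 and 807. The broadest, Chr7:2386433-2453974, was covered over 66491 and 67542 bp in the libraries labelled control and over 62453 and 59333 bp in slr1, with a mean fold of 5.53 against 4.05. Its groups did not overlap in length, but the log2 difference was only -0.14 (SE 0.03, limma adjusted p = 0.549). Chr1:5547853-5610990 was covered over 57061 and 60727 bp in the libraries labelled control and 62779 and 58612 bp in slr1, and Chr3:26974205-27034003 over 58654, 59529, 58262 and 58835 bp. Chr11:25808321-25867646 and Chr10:2383454-2437964 were likewise covered almost whole in each library, between 51685 and 59326 bp.

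A small number of regions present in all 4 libraries differed markedly in extent, and were picked after their values were seen. Among 3226 such regions with a mean covered length of at least 2000 bp, both slr1 libraries were above both libraries labelled control in 371 (11.5%) and below in 755 (23.4%), by at least 2-fold in 22 and 25. The region with the largest ratio was Chr11:10728371-10735909, covered over 1010 and 1933 bp in the libraries labelled control and 7539 and 5977 bp in slr1, with 3578 and 2765 bp in those labelled GA. Chr12:15830838-15835901 was covered over 766 and 1230 bp against 5046 and 3469 bp, and the libraries labelled GA had 454 and 578 bp. In both, the slr1 values lay clear of the other 4 libraries.

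Chr11:6514215-6523833 was the longest of the regions with the smallest ratios. It was covered over 9194 and 9546 bp in the libraries labelled control, 7544 and 8111 bp in those labelled GA, and 1698 and 1863 bp in slr1, and its mean fold was 5.45 against 4.11. The groups were far apart relative to the spread of each pair, with a log2 difference of -2.27 (SE 0.09, limma adjusted p = 0.192). Chr1:35460212-35465440 had the lowest ratio, with 3499 and 4388 bp against 787 and 371 bp, and 2900 and 1934 bp in the libraries labelled GA. None of the 6 regions with the largest and 6 with the smallest ratios passed the limma test.

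The share of the mark on each chromosome differed little, most on chromosome 12. Chromosome 12 held 7.22% and 7.27% of the covered length in the libraries labelled control and 7.85% and 7.78% in slr1, with 7.38% and 7.28% in those labelled GA. Its mean covered length was 1.92 Mb in slr1 and 1.89 Mb in the libraries labelled control, but the slr1 libraries stood on both sides, at 2.18 and 1.66 Mb against 1.81 and 1.97 Mb. Chromosome 9 held 6.83% and 6.86% against 6.99% and 7.06%. Chromosome 1 held 12.8% and 12.6% against 12.3% and 12.4%, and chromosome 3 held 10.2% and 10.1% against 9.90% and 9.89%. Both slr1 libraries lay above both libraries labelled control in 5 of the 12 chromosomes (41.7%) and below in 5 (41.7%), and they lay outside all 4 wild-type libraries in 6, above in chromosomes 5, 9 and 12 and below in 1, 3 and 4. These shares add up within a library and are not independent.

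**Figure D5:**
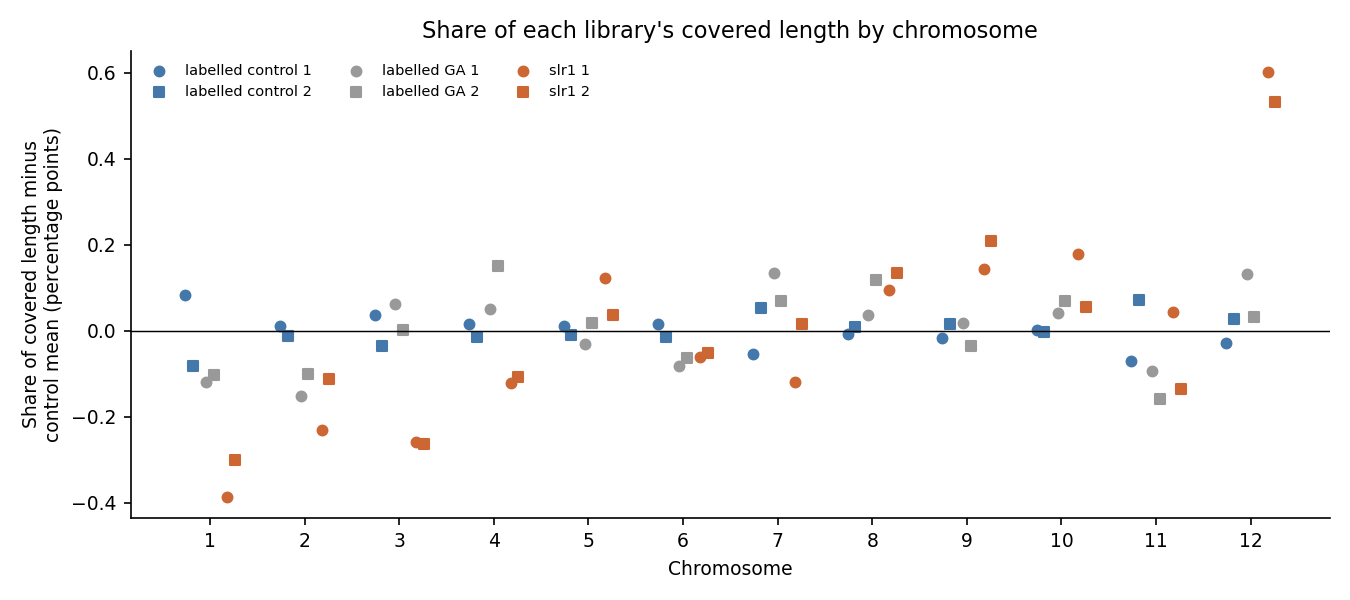
Share of each library's covered length on each chromosome, minus the mean share of the libraries labelled control (percentage points), for all 6 H3K27me3 libraries. Chromosome 12 stands out, with the slr1 libraries at 7.85% and 7.78% against 7.22% and 7.27% in the libraries labelled control, and chromosome 1 lies lowest.

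The share of regions lost ran from 3.40% on chromosome 12 to 6.96% on chromosome 3, and the share gained from 0.487% on chromosome 3 to 2.06% on chromosome 11, with 1.97% on chromosome 12. Chromosome 3 was thus highest in lost and lowest in gained regions, and chromosome 12 lowest in lost and next to highest in gained. The first slr1 library alone marked 12.7% of the regions of chromosome 12, the highest share of any chromosome.

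In windows of 1 Mb, the window Chr11:5000001-6000000 held the most lost regions, 11 of 35. Chr2:8000001-9000000 followed with 9 of 51 and 4 windows had 8 each, Chr11:6000001-7000000 (of 37), Chr11:4000001-5000000 (of 65), Chr11:19000001-20000000 (of 72) and Chr5:23000001-24000000 (of 65). The most gained regions fell in Chr12:21000001-22000000, with 7 of 52 and 0 lost. Then came 3 windows with 4 each, Chr11:8000001-9000000 (of 36), Chr10:5000001-6000000 (of 37) and Chr7:6000001-7000000 (of 56). Of 379 windows, covered length was higher in both slr1 libraries than in both libraries labelled control in 12 (3.17%) and lower in 46 (12.1%). As a share of each library's total, it was higher in 96 (25.3%) and lower in 117 (30.9%).

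The 5 windows where the slr1 share was furthest above that of the libraries labelled control also had a higher covered length. In Chr2:17000001-18000000 peaks covered 122 and 130 kb in the libraries labelled control and 157 and 144 kb in slr1. In Chr12:15000001-16000000 they covered 63.8 and 69.8 kb against 110 and 77.8 kb, and in Chr7:6000001-7000000 81.5 and 94.8 kb against 132 and 98.9 kb. The slr1 share was furthest below in Chr7:2000001-3000000, which holds the broadest domain, with 376 and 392 kb against 335 and 294 kb. Next came Chr11:6000001-7000000, which holds Chr11:6514215-6523833, with 69.5 and 79.7 kb against 56.5 and 45.8 kb.

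Gained regions were about as numerous per window whatever the number of shared regions, but made up a smaller share of the regions in dense windows. Windows with fewer than 20, with 20 to 30 and with 30 or more regions marked in all 4 libraries held 0.50, 0.59 and 0.46 gained regions each on average. Lost regions numbered 1.18, 2.49 and 2.90 per window, and regions marked in the first slr1 library alone 2.39, 3.74 and 3.71. Lost regions were thus more numerous per window where shared regions were dense, but such windows also held more regions in all. Of the regions in the same classes of window, 5.40%, 6.19% and 5.31% were lost, and 2.28%, 1.48% and 0.840% were gained. The share lost thus changed little with density, and the share gained fell. The share marked in the first slr1 library alone fell as well, at 10.9%, 9.29% and 6.79%.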

How the data were processed

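H3K27me3 ChIP libraries of rice seedlings were compared from the authors' broad peak lists, 1 per library, so replicates were not pooled before calling. Trim Galore 0.6.6, Bowtie2 2.4.4, deepTools 3.5.0 and MACS2 2.2.7.1 are named in the submitters' processing notes. The sources used here name no genome build. The authors deposited for each peak a fold enrichment (a ratio) and a -log10 q value, whose lowest values lay just above 1. No depth or input comes with the lists, so intervals for single peaks were not possible, and a library's depth can move its number of peaks, their width and their fold.

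Overlapping peaks of the 4 lists were merged into regions (Python 3.11.15), and a region was marked in a library at 200 bp or more. A region's fold in a library is the mean over its peaks weighted by covered length. Library values were compared by exact permutation tests, adjusted by Benjamini-Hochberg over the 4 measures. limma 3.58.1 (R 4.3.3, trend, robust) was run on log2(covered bp + 200) over regions with a mean of at least 500 bp, adjusted by Benjamini-Hochberg; these log2 differences understate changes of short regions. The procedure was tested on simulated data with known shifts in log2 covered length. These were not built to mimic regions absent from a group, so they do not show how often such regions would be called. Regions named were the 8 lost and 8 gained with the largest mean covered length, the 5 broadest in all 4 libraries, and the 3 windows with most lost and most gained; others named were chosen after their values were seen. The members and lists were chosen with earlier results of these data known. Alternatives changed the peak limits, merging distance, marking length, pseudocount, length filter, centring, limma options and libraries. RNA and input samples were not used here.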

Additional observations from a re-analysis of the deposited data

How the results depend on the processing

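The direction of the mean fold held in each setting run, between -0.56 and -0.36 with 1 library left out and at -0.24 with the libraries labelled GA as reference. Covered length turned to 1.28 Mb higher in slr1 with that reference, and ran from -4.75 to 1.66 Mb with 1 library left out. The difference in peak number ran from -1821.5 to 77.5 with 1 library left out. It was -1909 at a fold of at least 3 and -2178 at a -log10 q of at least 3. The difference in median peak width became 256.75 bp at a fold of at least 3, 176.25 bp at a -log10 q of at least 3 and 68.75 bp with the libraries labelled GA, and ran from -53.75 to 49.75 bp with 1 library left out. The Jaccard gap ran from -0.0216 to 0.0979, below 0 without either library labelled control.

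Lost regions numbered 1120 (14.1% of the regions then merged) at a fold of at least 3 and 1227 (11.7%) at a -log10 q of at least 3. They numbered 379 when marking took 1000 bp, and 997 to 2113 with 1 library left out. A limit on fold or q also counts as lost a region whose slr1 peaks are present but under it. At a fold of at least 3 the lists labelled control kept 7412.5 peaks on average, and the slr1 lists 5503.5. Gained regions numbered 31 (0.389%) at a fold of at least 3 and 41 (0.39%) at a -log10 q of at least 3. They numbered 316 with the libraries labelled GA, 100 when marking took 1000 bp, and 254 to 1486 with 1 library left out. limma called 524 lower and 20 higher at a fold of at least 3, 359 and 19 at a -log10 q of at least 3, 2 and 2 with libraries centred on their medians, and 28 and 6 without trend and robust options; the cause was not tested. With the replicate number as a block it called 0 and 0. Same-numbered libraries did not pair (r = -0.14 over 9708 regions), and a crossed block, added after seeing the data as was the GA reference, also called 0 and 0. Of 144 values of the 16 lost and gained regions named by covered length, 76 moved by more than 1 SD. At a fold of at least 3 the difference became 0 in 12 of the 16, including all 8 gained. Their sign is fixed by how they were chosen. No depth is known, so the smallest detectable change is not known either.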
